A study of Mus musculus with 72 samples.

Results

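Liver gene expression was compared between male and female C57BL/6J mice kept on 40% caloric restriction (CR), 6 mice of each sex, with 1 Illumina bead array per mouse. These were 12 of the 72 arrays of a study in which both sexes of C57BL/6J and DBA2/J mice ate freely (ad libitum, AL) or received 20% or 40% CR. The genes compared were those read by autosomal probes with a detection p-value under 0.01 on 6 or more of the 12 arrays. That rule kept 9340 of 23079 autosomal probes, among 25697 probes in all, and these read 6977 of 15960 autosomal genes. Both strains are inbred, and the labels name no transgene or deletion in any group. The mice entered restriction when 6 months old and were killed when 23 to 24 months old, having spent 17 to 18 months on their diet. On the day of collection the CR mice went without their daily ration, and the AL mice had food until they were killed. The sexes within a diet shared this schedule, but across diets the time since the last meal and the amount eaten cannot be told apart. Nothing in the labels links mice of different groups, so p-values measure the spread between mice within groups, pooled over all 12 groups of the study.

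Adult mouse liver expresses many genes at different levels in males and females. Much of this difference is known to follow the pattern of growth hormone release from the pituitary, which is pulsatile in males and more continuous in females, acts through the growth hormone receptor and the transcription factor STAT5, and is itself set by sex steroids. Male-biased products include steroid-hydroxylating cytochromes P450 and the major urinary proteins, which carry pheromones, and female-biased products include other P450s, flavin monooxygenases and sulfotransferases. The transcription factors CUX2, female-biased, and BCL6, male-biased, are repressors in this circuit.

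Promoter sequences of 5 genes on which the comparison turned most are shown first, because their base composition differed within each sex. Cyp2d9 and Nat8 had the largest male-over-female differences, and Zbtb7a, St3gal6 and Bach1 the largest female-over-male differences. Each sequence is the RefSeq sequence of assembly GRCm38.p6 from 250 bases before to 50 bases after the annotated start, written 5′ to 3′ on the strand of the gene, with every CpG dinucleotide in capitals. The windows are chr15:82452127-82452426 on the plus strand for Cyp2d9, chr6:85836808-85837107 on the minus strand for Nat8, chr10:81136021-81136320 on the plus strand for Zbtb7a, chr16:58524204-58524503 on the minus strand for St3gal6 and chr16:87698704-87699003 on the plus strand for Bach1.
Cyp2d9: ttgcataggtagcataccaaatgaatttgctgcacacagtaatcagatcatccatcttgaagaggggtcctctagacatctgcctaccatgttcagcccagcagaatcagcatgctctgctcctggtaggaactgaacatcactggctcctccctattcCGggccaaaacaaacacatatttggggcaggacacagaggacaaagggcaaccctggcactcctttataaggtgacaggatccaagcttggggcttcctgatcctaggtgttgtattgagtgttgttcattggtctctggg
Nat8: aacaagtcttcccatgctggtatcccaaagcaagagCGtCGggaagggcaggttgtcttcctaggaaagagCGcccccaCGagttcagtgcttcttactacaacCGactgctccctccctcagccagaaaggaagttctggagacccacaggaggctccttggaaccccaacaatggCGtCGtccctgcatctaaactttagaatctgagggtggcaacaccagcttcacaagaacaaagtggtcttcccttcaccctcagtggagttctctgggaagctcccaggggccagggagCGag
Zbtb7a: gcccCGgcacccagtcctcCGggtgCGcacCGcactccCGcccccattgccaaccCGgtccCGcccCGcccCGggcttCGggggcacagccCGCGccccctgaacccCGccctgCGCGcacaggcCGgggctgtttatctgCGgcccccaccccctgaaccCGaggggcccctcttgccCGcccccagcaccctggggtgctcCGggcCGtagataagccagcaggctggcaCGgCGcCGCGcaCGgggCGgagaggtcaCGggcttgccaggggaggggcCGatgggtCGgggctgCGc
St3gal6: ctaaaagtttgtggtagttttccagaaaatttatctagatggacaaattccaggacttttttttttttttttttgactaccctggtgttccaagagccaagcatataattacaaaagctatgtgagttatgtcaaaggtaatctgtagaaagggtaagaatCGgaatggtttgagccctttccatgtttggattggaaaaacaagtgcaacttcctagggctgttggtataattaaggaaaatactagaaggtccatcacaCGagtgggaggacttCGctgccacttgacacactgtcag
Bach1: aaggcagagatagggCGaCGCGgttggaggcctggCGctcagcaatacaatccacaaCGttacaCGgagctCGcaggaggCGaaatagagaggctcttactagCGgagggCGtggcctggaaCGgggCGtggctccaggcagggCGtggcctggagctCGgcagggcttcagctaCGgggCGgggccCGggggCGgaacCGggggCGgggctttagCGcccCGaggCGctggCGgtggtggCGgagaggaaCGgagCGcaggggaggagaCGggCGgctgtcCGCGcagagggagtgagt

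The Cyp2d9 window held 1 CpG, the St3gal6 window 3 and the Nat8 window 8. The Zbtb7a and Bach1 windows held 31 each. None of the 5 held TTCNNNGAA, the palindromic STAT5 motif, or ATCGAT, a palindromic motif read by HNF6 and CUX2; each motif reads the same on both strands. The STAT5 motif was in 8.47% of all 27025 promoters of the table, in 14 of 164 promoters of male-higher genes (8.54%) and in 10 of 184 of female-higher genes (5.43%). ATCGAT was in 0.881% of all promoters, in 3 of the 164 (1.83%) and in 1 of the 184 (0.543%). The table held promoters of 164 of the 189 male-higher and 184 of the 218 female-higher genes described below, with a median of 23 and 21 CpGs, beside 21 for the 5723 matched among all genes tested. For genes with a sex difference of 4-fold or more in AL mice the median was 3.5 CpGs (18 of 23 matched).

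Values below are log2 intensities after background correction and normalization, and differences are male minus female on that scale with their standard error (SE). A gene was counted as different when the Benjamini-Hochberg adjusted p-value, over all 10193 probes tested, was under 0.05 in a limma fit of all 12 groups, and it was read by its brightest probe. Of the 6977 genes, 189 (2.71%) were higher in males and 218 (3.12%) were higher in females, together 407 (5.83%). By probe, 572 of 9340 (6.12%) passed the threshold, and 143 (1.53%) also differed by at least 1.5-fold. The median difference over all genes was -0.00, with 49.7% of genes higher in males. The 6 male and 6 female levels did not overlap for 239 genes (3.43%), among them 160 of the 407. Of 3 genes detected on no male array and 5 detected on no female array, 3 each passed; such genes entered through the sex in which they were bright. The probe count of 572 became 354 without male array 103, 305 when the compared groups were fitted alone and 1286 with array quality weights.

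One male array, number 106, stood apart from the other arrays. Its mean correlation with the other males was 0.945, against 0.974 to 0.979 for the other 5 males and 0.972 to 0.982 for the females. On it, 532 genes lay at least 2-fold from the mean of the other males, 246 above and 286 below, against 28 to 152 genes for each of the other 11 arrays. Ddit4, a stress-induced inhibitor of mTOR signalling, was at 11.65 there and at 5.76 to 6.75 in the other males. Car3, a carbonic anhydrase of hepatocytes and fat cells, was at 4.85 there and at 9.31 to 10.24 in the others. Both genes were picked with their values in view. Without array 106, 140 genes (2.01%) were higher in males and 150 (2.15%) in females. The level of the X-linked Xist (4.22 to 4.33 in males, 5.35 to 6.41 in females) and of the Y-linked Eif2s3y (7.56 to 7.88 in males, 4.16 to 4.25 in females) matched the labelled sex on all 12 arrays.

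**Figure D1:**
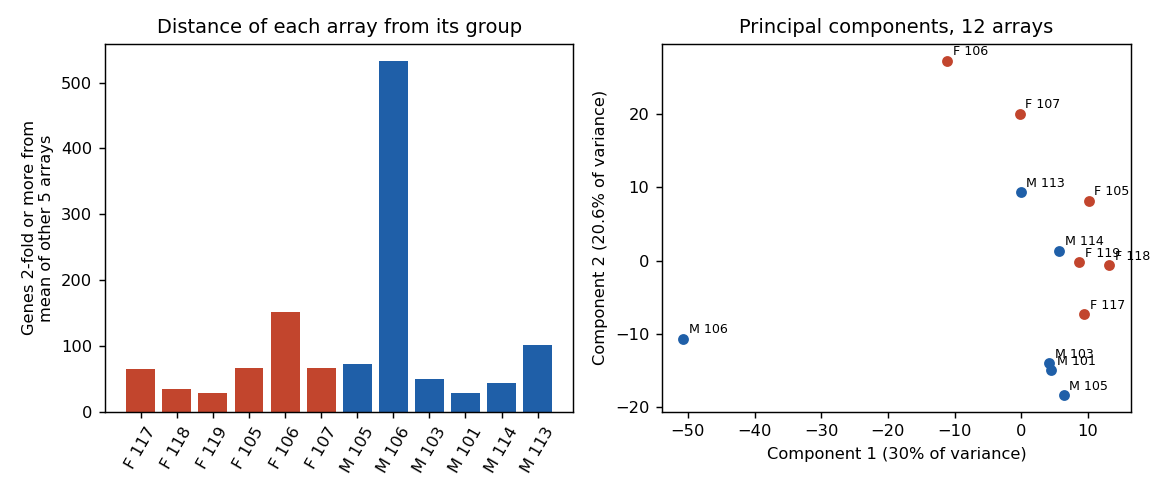
Left, bars give the number of genes on each of the 12 arrays that lay 2-fold or more from the mean of the other 5 arrays of the same sex. Right, each point is an array on the first and second principal components, with 30% and 20.6% of the variance; male array 106, with 532 such genes, lies far from the other males on the first component.

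Cell type markers were read on the same arrays. List means, here and below, cover all list genes on the arrays outside chromosomes X and Y, tested or not. Of 10 hepatocyte markers tested, Apoh and Rbp4, both secreted plasma proteins, were higher in males (0.51 and 0.70) and none was higher in females. The mean level of that list covered 13 genes, 2 of them detected on none of the 12 arrays. It ran from 11.17 to 11.24 in females and from 11.34 to 11.43 in males, without overlap. Over the 10 tested markers the median difference was only 0.05, with 7 higher in males and 3 higher in females. Of 12 Kupffer cell and macrophage markers none passed the threshold in limma (2 at an unadjusted p under 0.05), although 11 of the 12 were higher in males. The mean of that list (13 genes) ran from 6.72 to 7.66 in females and from 6.59 to 8.06 in males, with array 106 the highest. Among 9 stellate cell and fibroblast markers only Lrat passed, and the list mean (14 genes) ran from 5.76 to 6.14 in females and from 5.64 to 5.98 in males. None of 6 neutrophil or 12 endothelial markers passed (0 and 2 at an unadjusted p under 0.05). All 6 neutrophil markers were higher in females, with a median difference of -0.19. Their list mean (12 genes) overlapped, at 5.59 to 6.21 in females and 5.51 to 6.07 in males. Among the endothelial markers 7 were higher in females and 5 in males. Of 8 B and plasma cell and 13 T and NK cell markers on the arrays, 1 each was bright enough to test, and of 5 cholangiocyte markers none was. Whether these shifts have a part in the gene differences was not tested, and in bulk tissue fewer cells of a type and less RNA per cell cannot be told apart.

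The largest male-over-female difference was that of Cyp2d9, a male-biased steroid hydroxylase of the P450 family. Its level was 8.29 to 8.81 in females (median 8.47) and 10.66 to 12.88 in males (median 11.25). Every male lay above every female. The difference was 2.97 ± 0.37 (SE, adjusted p = 2.6e-08), or 7.82-fold, and 2.68 without array 106. Near-identical family members may be read by the same probe, so the value may stand for more than Cyp2d9.

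Nat8, an N-acetyltransferase of the mercapturate pathway, had levels of 4.62 to 6.05 in females (median 5.35) and 7.24 to 8.53 in males (median 8.07). The groups did not overlap, and the difference was 2.65 ± 0.25 (adjusted p = 2.3e-12), or 6.27-fold. Cyp7b1, the oxysterol hydroxylase of the alternative bile acid pathway, was at 6.90 to 7.87 in females (median 7.48) and 7.73 to 9.32 in males (median 9.06). Its difference was 1.43 ± 0.28 (adjusted p = 4.9e-04) and 1.66 without array 106, the one male whose level lay within the female range.

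The other 9 of the 12 largest male-higher genes differed by 0.74 to 1.43. Hhex, a homeobox transcription factor of liver development, ran from 6.96 to 8.23 in females and from 8.11 to 9.32 in males (difference 1.43 ± 0.31, adjusted p = 0.0021). Tdo2, which opens the tryptophan ring in the first step of kynurenine synthesis, ran from 5.79 to 6.68 in females and from 6.66 to 8.21 in males (1.19 ± 0.20, adjusted p = 3.7e-05). In both genes the groups touched at their edges. Dbp, a clock-controlled transcription factor, differed by 1.05 (adjusted p = 0.038), the lysosomal sulfatase Arsa by 0.95 and the mitochondrial methyltransferase Etfbkmt by 0.86. Tmed2 and Vapa, proteins of the early secretory pathway, differed by 0.77 and 0.75. Slc38a4, an amino acid transporter, differed by 0.75, and Pck1, which commits carbon to gluconeogenesis, by 0.74 (adjusted p = 0.024).

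The largest female-over-male difference was that of Zbtb7a, a zinc finger transcriptional repressor. Its level was 7.70 to 8.12 in females (median 7.92) and 6.01 to 6.46 in males (median 6.24). The groups were well apart, and the difference was -1.71 ± 0.17 (adjusted p = 1.1e-11), or 3.27-fold higher in females, and -1.67 without array 106. St3gal6, a sialyltransferase, was at 6.86 to 7.82 in females and 5.64 to 6.17 in males (-1.40 ± 0.21, adjusted p = 3.7e-06). Bach1, a haem-regulated transcriptional repressor, was at 7.66 to 8.30 in females and 6.44 to 7.03 in males (-1.29 ± 0.18, adjusted p = 5.6e-07). Neither gene's groups overlapped.

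Ppara, the nuclear receptor that drives fatty acid oxidation in fasting, had levels of 6.07 to 7.32 in females (median 7.08) and 5.04 to 6.19 in males (median 5.71). The ranges overlapped through female array 106, the lowest female. The difference was -1.28 ± 0.17 (adjusted p = 8.9e-08) and -1.15 without male array 106.

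The other female-higher genes of the 12 had several roles. Hao2, a peroxisomal hydroxyacid oxidase of the female-biased set, was detected on 6 female arrays and on 0 male arrays, so its difference is a bound, at least 1.96-fold (adjusted p = 0.0013). The metal-binding protein Mt1 ran from 11.40 to 14.79 in males, with array 106 the highest, and from 13.38 to 14.95 in females; it differed by -1.24 and by -1.63 without array 106. Ceacam1, an adhesion molecule linked to insulin clearance, differed by -1.19 (adjusted p = 1.9e-06). Mllt3, a chromatin reader, differed by -1.11 (adjusted p = 2.9e-09), the carnitine transporter Slc22a5 by -1.08 and the retinol-esterifying enzyme Lrat by -1.05. Mia3, which exports collagen from the endoplasmic reticulum, differed by -1.03, and the RNA helicase Ddx6 by -0.99. One of the other 2 tested probes for Slc22a5 gave -0.24 and did not pass the threshold.

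**Figure D2:**
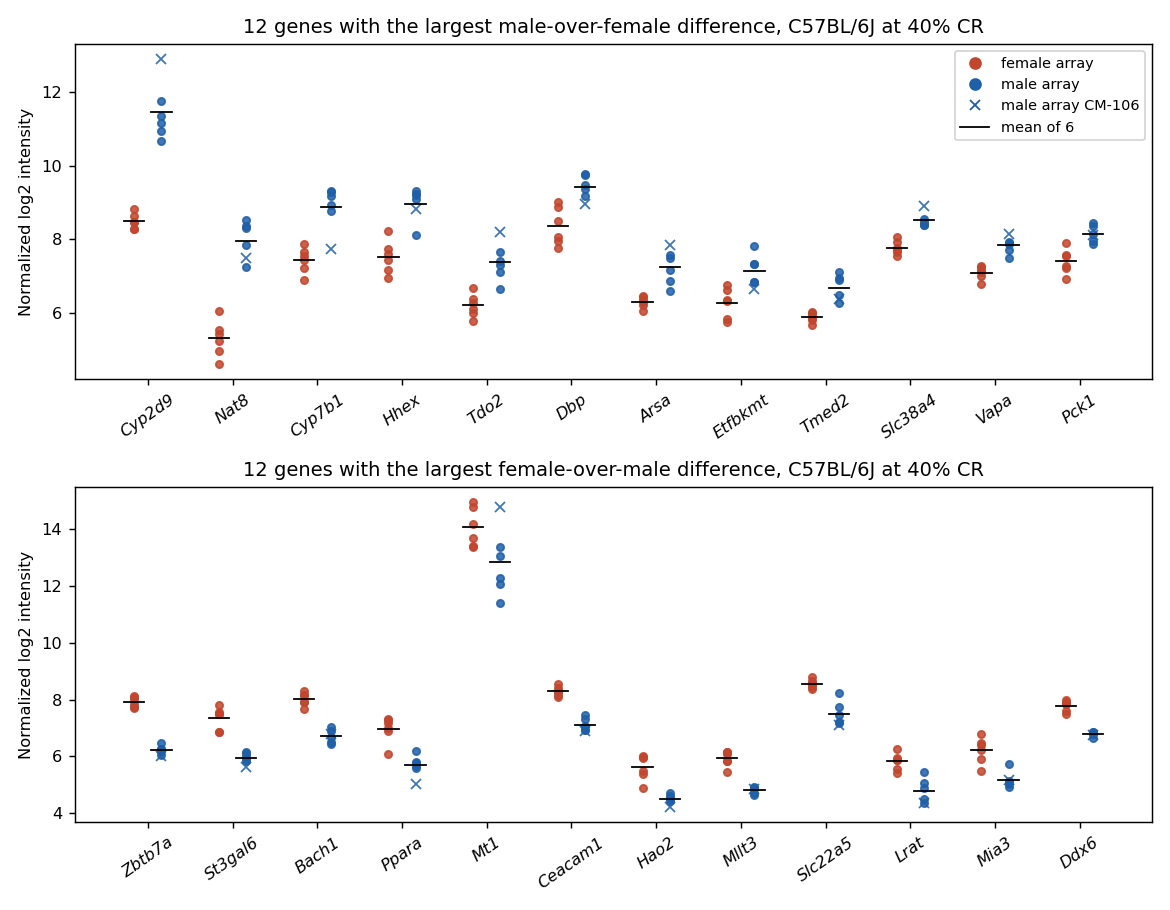
Normalized log2 intensity of the 12 genes with the largest male-over-female (upper) and female-over-male (lower) differences in C57BL/6J liver at 40% CR, 1 point per array, with the mean of 6 as a line and male array 106 as a cross. Cyp2d9, Nat8, Zbtb7a, St3gal6 and Bach1 separate the sexes completely, and Cyp7b1 overlaps through array 106.

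The genes known for hormone-driven sex bias were described as lists. Of 54 listed male-biased genes 27 were tested, and of 45 female-biased genes 19. The others either did not pass the filter or had no probe on the arrays. Of 21 major urinary protein genes 5 had a probe and 4 were tested. Of 24 female-biased P450, flavin monooxygenase and sulfotransferase genes 17 had a probe and 10 were tested. For the other 21 female-biased genes these numbers were 14 and 9. Of the 27 (P450s and steroid enzymes, major urinary proteins and others) 3 were higher in males at 40% CR, namely Cyp2d9, Cyp7b1 and C6, beside 2.71% of all genes. Without array 106 the count was 4, with Mup5 and Serpina12 in place of C6. Both were highest on male arrays 113 and 114. Serpina12 was at 9.74 and 8.77 there and at 5.12 to 6.29 on the remaining males, within the female range of 5.03 to 6.71. Mup5 was at 8.07 and 8.31 there and at 5.65 to 6.61 on the remaining males. Of the 19, Hao2 and Abcd2 were higher in females, and Hao2 alone without array 106, beside 3.12% of all genes. Hao2 entered the tested set through its female arrays alone, so its call adds no support, and the other Abcd2 probe (-0.51) did not pass. No member was called in the direction opposite to its known bias. In the same fit the AL arrays gave 15 of the 27 male-biased and 16 of the 19 female-biased genes, against 6.92% male-higher (483) and 4.82% female-higher (336) of all genes. At 20% CR, 17 of the 27 and 7 of the 19 passed, against 8.11% (566) and 6.26% (437) of all genes. The counts at each diet cover only genes past the detection filter on the 40% CR arrays. A listed gene bright only at AL or 20% CR is in none of them. In all, 5 of 46 genes listed for hormone-dimorphic expression passed at 40% CR, where 5.83% of all genes passed, beside 31 at AL.

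The median difference of the male-biased genes was 1.32 at AL, 1.31 at 20% CR and 0.60 at 40% CR, beside -0.00 for all genes at 40% CR. That of the female-biased genes was -1.38, -0.93 and -0.33. Among the 4 major urinary protein genes tested, none passed at 40% CR (1 at an unadjusted p under 0.05 in limma); their median difference was 1.18, against 1.66 at AL and 3.68 at 20% CR, and near-identical members share probes. Mup5 was at 4.61 to 5.95 in females and at 4.61 to 8.31 in males, a wide male range. In all 4 genes male arrays 114 and 113 were the highest. Mup2 was at 10.41 and 8.54 on them, at 5.50 to 6.44 in the other males and at 5.01 to 7.21 in females. Mup6 was at 9.87 and 8.64, at 5.63 to 6.91 and at 5.43 to 6.88. Of 10 female-biased P450, flavin monooxygenase and sulfotransferase genes, none passed at 40% CR (1 at an unadjusted p under 0.05) and 7 passed at AL. Cyp4a12a, an arachidonic acid hydroxylase of the male-biased set, was at 4.32 to 4.76 in females and 5.19 to 7.86 in males. The sexes were apart in every mouse, but the difference of 1.81 ± 0.61 did not pass (adjusted p = 0.059). Its female median of 4.42 lies within 4.22 to 4.70, the range of Hao2 on male arrays, which did not detect it. At such levels the difference may be understated. Cyp2b10, chosen after its values were seen, was at 5.86 to 7.38 in females and 5.60 to 9.69 in males, the highest male being array 106.

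**Figure D3:**
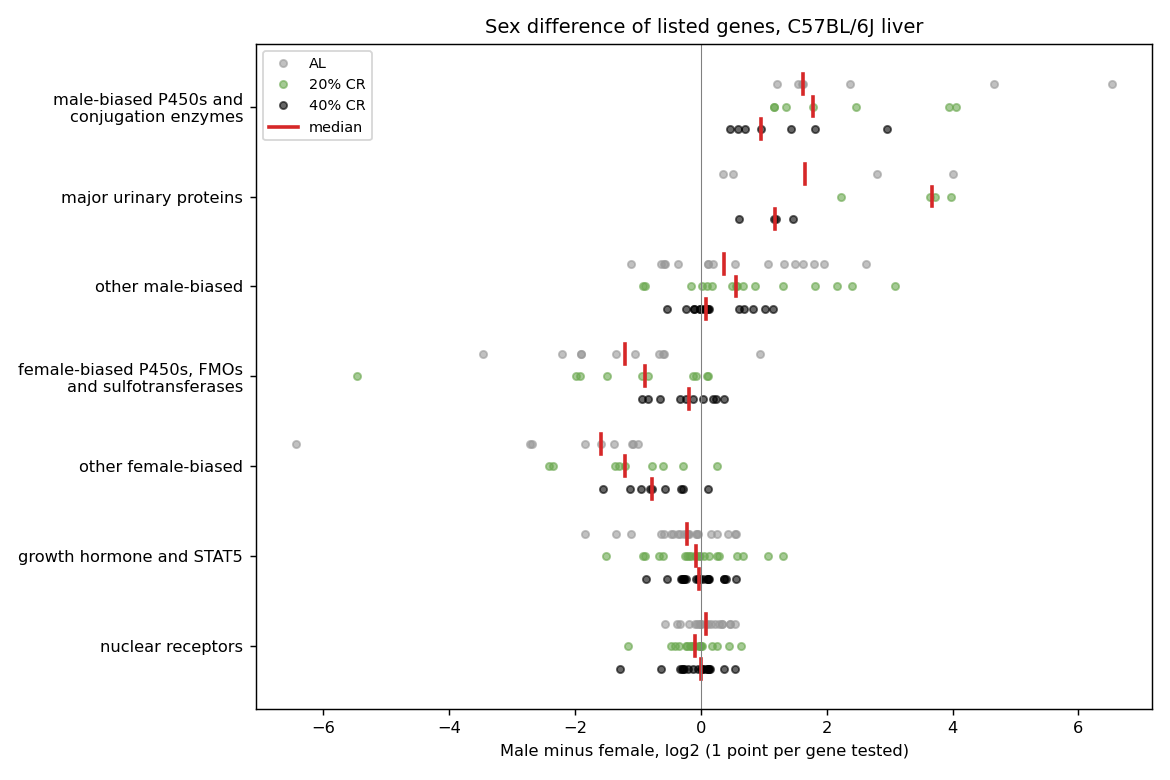
Male-minus-female log2 difference of each listed gene tested in C57BL/6J liver at AL, 20% CR and 40% CR, 1 point per gene, with the list median in red. The median of major urinary proteins was 1.66 at AL, 3.68 at 20% CR and 1.18 at 40% CR, and that of female-biased P450s, FMOs and sulfotransferases was -1.20 at AL and -0.18 at 40% CR.

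Genes of the signalling circuit itself did not pass the threshold. Of 21 growth hormone and STAT5 pathway genes tested, 0 passed at 40% CR in limma and 2 had an unadjusted p under 0.05, with a median of -0.03. Igf1, the growth hormone target secreted by liver, was at 11.00 to 11.28 in females and 10.61 to 11.15 in males (-0.29 ± 0.11, adjusted p = 0.097). For the receptor gene Ghr the difference was -0.28 ± 0.26, for Stat5a -0.27 ± 0.17, for Bcl6 -0.01 ± 0.41, for Socs2, a feedback inhibitor, -0.54 ± 0.47 and for the oestrogen receptor Esr1 -0.13 ± 0.19; these 5 were chosen after their values were seen.

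Other pathways are given beside the 5.83% called over all genes. Of 19 nuclear receptor genes, Ppara, Nr5a2 (-0.63) and Nr1h3 (-0.33) were higher in females; without array 106 Nr1h3 no longer passed. The other probe tested for Nr5a2 gave -0.16 and that for Nr1h3 gave 0.08, opposite in sign, and neither passed. Of 23 bile acid genes, Cyp7b1 and Cyp27a1, the mitochondrial sterol hydroxylase (0.42), were higher in males and Abcc2, a canalicular exporter (-0.54), in females. The other Abcc2 probe gave 0.15, opposite in sign, and the other Cyp27a1 probes gave 0.12 and 0.20, none past the threshold. Of 29 fatty acid oxidation genes, Ppara was the only call; 25 of the 29 were higher in females, with a median of -0.34 beside -0.00 for all genes, and -0.27 without array 106. Of 39 complement and coagulation genes, C6 and Cfb were higher in males and F10, Mbl1 and Serpinf2 in females, and none of the 5 passed without array 106. None of 17 lipogenesis, 15 cholesterol synthesis, 35 glutathione conjugation or 15 interferon genes passed with all arrays (2, 0, 6 and 1 at an unadjusted p under 0.05). Single genes passed among 16 clock genes (Dbp), 15 gluconeogenesis genes (Pck1), 27 amino acid and urea cycle genes (Tdo2), 9 pericentral genes (Glul, 0.43), 7 periportal genes (Pck1), 16 antigen presentation genes (H2-D1, 0.65, adjusted p = 0.0497, and 0.11 without array 106) and 22 acute phase genes (Mt1). Among the antigen presentation genes 13 of 16 were higher in males and among the periportal genes 6 of 7. The mean level of the periportal list (8 genes, 1 of them detected on none of the 12 arrays) ran from 9.09 to 9.20 in females and from 9.25 to 9.67 in males, without overlap. Prkaa2, a catalytic subunit of the energy sensor AMPK chosen with its values in view, was read by probes that disagreed: the brighter gave 0.24 and did not pass, and the other gave -1.37 (adjusted p = 5.2e-08).

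The same sex comparison in AL mice showed how the differences at 40% CR compared. Of the 189 male-higher genes 37 (19.6%, and 7.66% of the 483 at AL) were also male-higher at AL, and of the 218 female-higher genes 25 (11.5%, and 7.44% of the 336) were female-higher there. At 20% CR, 128 of the 189 (67.7%, and 22.6% of 566) and 121 of the 218 (55.5%, and 27.7% of 437) were called the same way. Neither comparison shares an array with that at 40% CR, but all used the same pooled estimate of spread. Over the 189 genes the median difference was 0.47 at 40% CR, 0.45 at 20% CR and 0.17 at AL, and over the 218 it was -0.46, -0.33 and -0.07; the 40% CR values chose these genes. Of the 23 genes with a difference of 4-fold or more at AL, which AL values chose, 4 were called the same way at 40% CR, namely Cyp2d9, Nat8, St3gal6 and Dct, and 18 had less than 50% of the log2 difference.

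**Figure D4:**
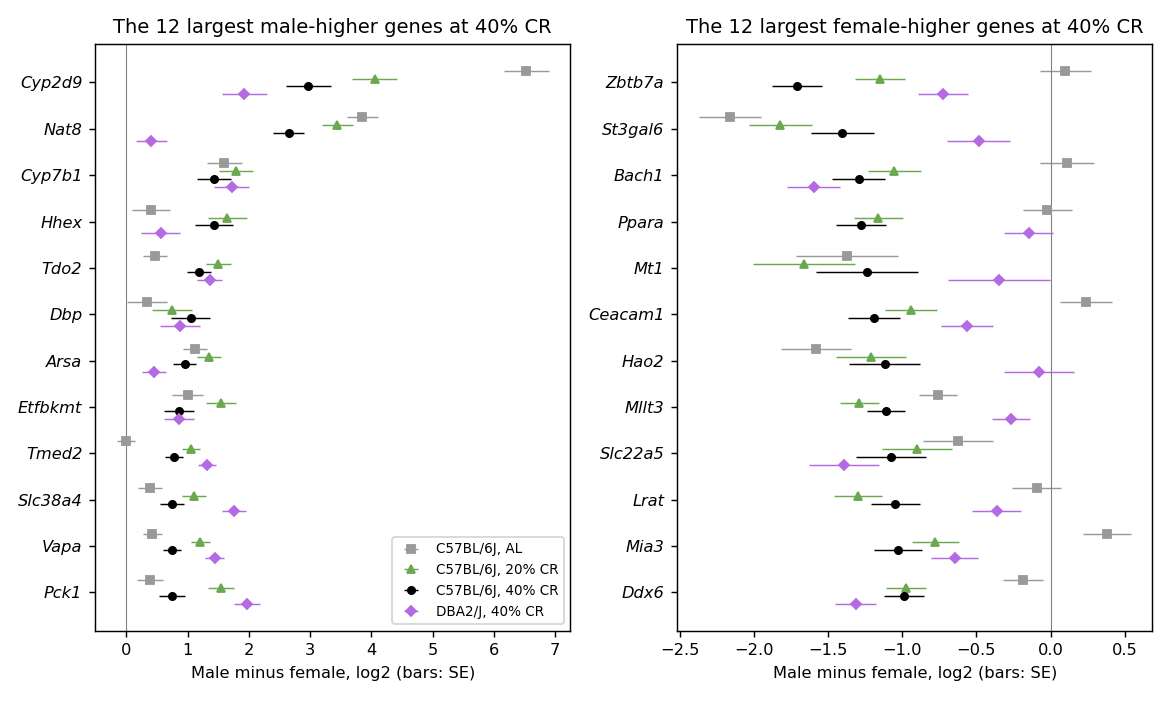
Male-minus-female log2 difference with its SE for the 12 largest male-higher (left) and 12 largest female-higher (right) genes of C57BL/6J mice at 40% CR, beside the same in C57BL/6J at AL and 20% CR and in DBA2/J at 40% CR. Cyp2d9 was 6.53 at AL, 4.06 at 20% CR and 2.97 at 40% CR, and Zbtb7a was 0.10, -1.15 and -1.71.

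The change of the sex difference between AL and 40% CR was tested gene by gene. It was more positive at 40% CR for 63 genes (0.903%) and more negative for 144 (2.06%). By probe 92 were more positive and 185 more negative, but on the authors' deposited z-scores 147 were more positive and 113 more negative, so the balance of directions depended on the scaling. The total of 277 probes became 141 with the compared groups alone and 936 with array quality weights. Diet altered many genes within each sex: 2188 (31.4%) differed between 40% CR and AL in males and 1917 (27.5%) in females. For some of the genes below the change within a sex is given as well.

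Of the 27 male-biased genes 19 had a smaller difference at 40% CR than at AL, and for 4 of them the change passed the threshold, beside 2.06% of all genes that were more negative. Cyp2d9 in females was 5.14 ± 0.57 (SD, n = 6) at AL and 8.49 ± 0.20 at 40% CR, a rise of 3.35 (adjusted p = 2.3e-10). In males it was 11.67 ± 0.52 and 11.46 ± 0.79, and the sex difference changed by -3.56 ± 0.52 (SE, adjusted p = 1.1e-05). The narrowing thus lay on the female side. Mup21 showed the male side: its male mean was 11.13 ± 0.94 at AL and 7.58 ± 1.25 at 40% CR, so that it fell by 3.56, beside 7.13 ± 0.58 and 6.98 ± 0.38 in females. The sex difference changed by -3.40 ± 0.82 (adjusted p = 0.011). Cyp4a12a was detected on 0 female arrays at AL, where males were at least 19.3-fold higher. Its male mean fell from 8.96 ± 1.36 to 6.31 ± 0.91, and the change of -2.85 had an adjusted p of 0.049. That call held in 3 of 19 alternative settings, with an adjusted p of up to 0.0996 in the others. C8b, a terminal complement component chosen after its values were seen, differed by 1.62 at AL and 0.05 at 40% CR (change -1.58 ± 0.32, adjusted p = 0.0021).

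Of the 19 female-biased genes 18 had a smaller difference at 40% CR, and for 5 the change passed, beside 0.903% of all genes that were more positive. A1bg, a plasma glycoprotein, had a female mean of 11.43 ± 3.27 at AL, a wide spread, and of 6.16 ± 0.96 at 40% CR, while males were at 5.01 ± 1.40 and 4.60 ± 0.23. The change was 4.87 ± 0.93 (adjusted p = 9.1e-04) and females fell by 5.28. Cux2, chosen after its values were seen, had a male mean of 4.40 ± 0.39 at AL and 6.04 ± 0.10 at 40% CR, a rise of 1.64 (adjusted p = 3.2e-05). Its female means were 6.24 ± 0.90 and 6.34 ± 0.33, and the sex difference changed by 1.53 ± 0.43 (adjusted p = 0.036). The Cux2 male mean at AL lies within 4.22 to 4.70, the range of Hao2 on male arrays at 40% CR, which did not detect it. So close to background, the male rise may be understated. Rtn4 (1.20), Cyp2g1 (1.39) and Fmo4 (0.98) also changed past the threshold, and in all 3 the male level rose under 40% CR. The other probe of Rtn4 gave a change of 0.63 that did not pass, and that of Cyp2g1 gave 1.85 (adjusted p = 0.0021).

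Outside those lists, the difference of Nat8 was 3.85 at AL and changed by -1.20 ± 0.36 (adjusted p = 0.046, and 0.074 without array 106). Clstn3, a calsyntenin, had a male mean of 7.20 ± 1.31 at AL and 5.21 ± 0.37 at 40% CR, and its difference changed by -2.61 ± 0.39 (adjusted p = 1.8e-05). Eci3, an isomerase of fatty acid oxidation, had a female mean of 7.58 ± 1.34 at AL and 5.13 ± 0.47 at 40% CR (change 2.34 ± 0.37, adjusted p = 4.1e-05). In Cyp7a1, the rate-limiting enzyme of bile acid synthesis, the difference was -1.97 at AL and 0.93 at 40% CR (change 2.90 ± 0.79, adjusted p = 0.025), with a male rise of 1.69; the value at 40% CR did not pass the threshold. Upp2, a uridine phosphorylase, went the same way, from -1.79 to 0.66 (change 2.45 ± 0.50, adjusted p = 0.0019), and 0.66 did not pass either.

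Several of the largest female-higher genes had no difference past the threshold at AL. Zbtb7a differed by 0.10 at AL (adjusted p = 0.78), and its change of -1.81 ± 0.24 (adjusted p = 2e-06) came with a female rise of 0.65, while males fell by 1.16. Bach1 changed by -1.40 ± 0.26 (adjusted p = 4.3e-04), with a female rise of 0.75, while males fell by 0.66. Ppara changed by -1.25 ± 0.23 (adjusted p = 6.9e-04), with a female rise of 0.98, and in males -0.28 did not pass. Ceacam1 (-1.43), Mia3 (-1.41), Lrat (-0.95) and Ddx6 (-0.80) also changed past the threshold. The other Ddx6 probes gave changes of -0.46 and -0.42 that did not pass, and the other Ceacam1 probe gave -1.11, which did. Tmed2 went the other way, from -0.01 at AL to 0.77 (change 0.78 ± 0.21, adjusted p = 0.025).

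**Figure D5:**
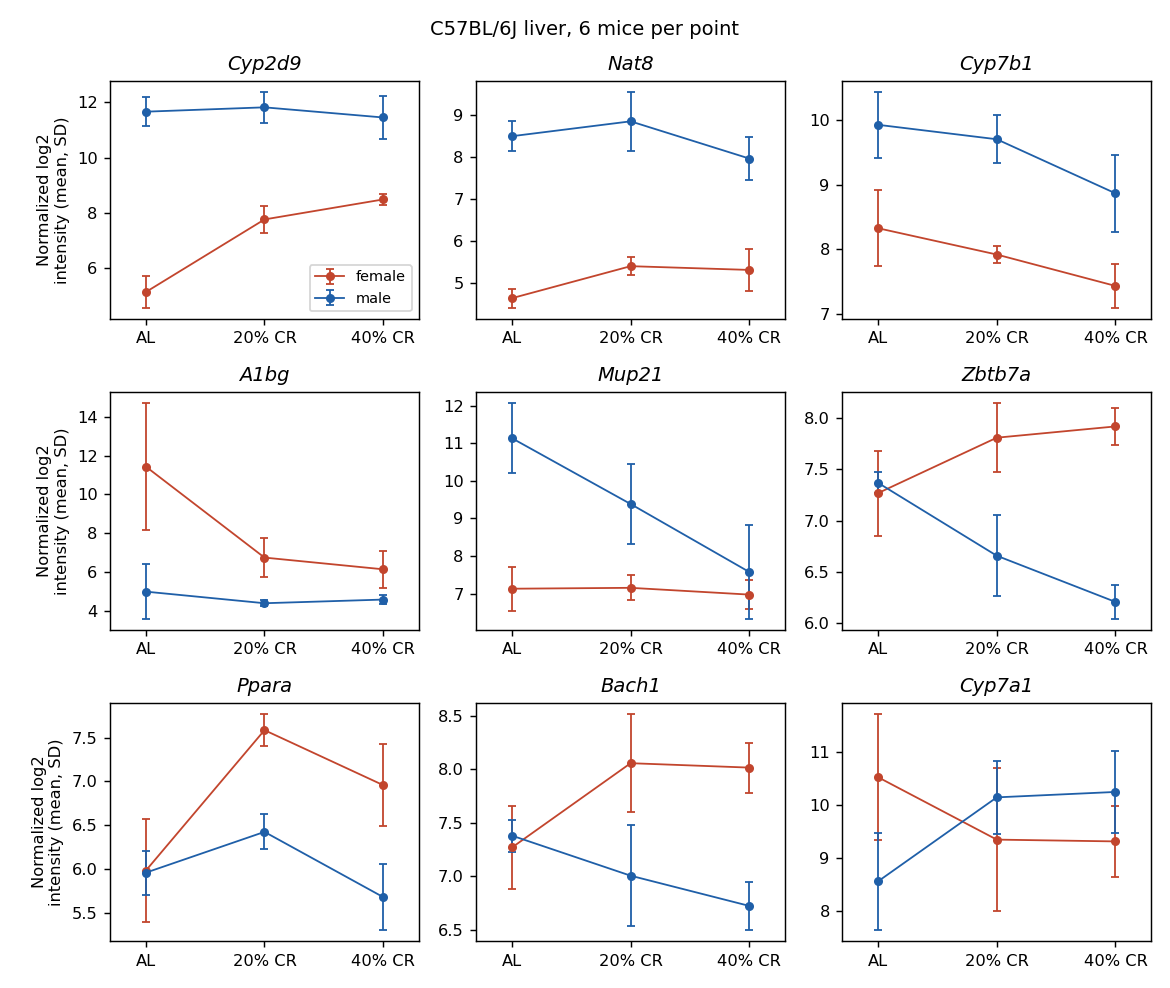
Mean normalized log2 intensity (bars: SD, 6 mice per point) of 9 genes in C57BL/6J females and males at AL, 20% CR and 40% CR. Cyp2d9 differs less at 40% CR through the female level and Mup21 through the male level, whereas Zbtb7a and Bach1 differed past the threshold at 20% and 40% CR and not at AL.

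Between 20% and 40% CR 1 gene changed in each direction (0.0143% of genes each), against 384 genes (5.5%) at an unadjusted p under 0.05. Cyp2b13, a female-biased P450 with near-identical family members, had a male mean of 6.03 ± 2.22 at 20% CR and 9.82 ± 1.28 at 40% CR (change 4.63 ± 0.92, adjusted p = 0.014). Pa2g4, a nucleic acid-binding regulator of growth, changed by -0.82 ± 0.15 (adjusted p = 0.0047), from 0.39 at 20% CR to -0.43 at 40% CR.

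DBA2/J mice on the same restriction gave 1026 male-higher (14.7%) and 788 female-higher genes (11.3%). Of the 189 male-higher C57BL/6J genes 127 (67.2%, and 12.4% of the 1026) were male-higher in DBA2/J, and of the 218 female-higher genes 105 (48.2%, and 13.3% of the 788) were female-higher there. The sex difference was more positive in C57BL/6J for 66 genes (0.946%) and more negative for 162 (2.32%). By probe 344 differed, and 219 without C57BL/6J male array 105. Nat8 differed by 2.65 in C57BL/6J and by 0.41 in DBA2/J, where it was at 4.91 ± 0.23 in males and 4.50 ± 0.16 in females (SD, n = 6). The strain difference was 2.24 ± 0.36 (adjusted p = 1e-04). The DBA2/J female mean of Nat8 lies within 4.22 to 4.70, the range of Hao2 on C57BL/6J male arrays, which did not detect it. So close to background, the DBA2/J sex difference of Nat8 may be understated and the strain difference overstated. Ppara differed by -1.28 in C57BL/6J and by -0.15 in DBA2/J (-1.13 ± 0.23, adjusted p = 0.0026). Uqcrb, a subunit of respiratory complex III, differed by -0.17 in C57BL/6J and 1.27 in DBA2/J (-1.44 ± 0.22, adjusted p = 6.1e-05).

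Other genes with the largest strain differences differed in DBA2/J but not past the threshold in C57BL/6J. Slc25a30, a mitochondrial carrier (1.88), Acot2, an acyl-CoA thioesterase (1.72), and the transcription factor Klf6 (1.36; adjusted p = 0.046, and 0.1 without array 106) were more positive in C57BL/6J. Gstm4, a glutathione transferase (-1.57), Hal, which starts histidine breakdown (-1.48), and the secreted protein Wfdc21 (-1.45) were more negative. One DBA2/J male of this comparison carries conflicting strain labels and was counted as DBA2/J, following its title.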

How the data were processed

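Liver RNA of 72 mice was read on Illumina arrays, and 12 arrays carry the comparison. Signals were exported with GenomeStudio 2011.1, per the submitters' processing notes. The authors deposited 1 probe intensity per array, without normalization, and a detection p-value beside each intensity, per the file headers. A second deposited table holds a score, which for 72 of 72 samples equalled log10 intensity scaled to z-scores per array and served as an alternative. Any scanning, slide or background steps before deposit are not given in the sources used here.

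Intensities were corrected with limma 3.58.1 (R 4.3.3, statmod 1.5.0, data.table version 1.17.8) by neqc over all 72 arrays, with background from the detection p-values and an offset of 16. Between 36.8% and 41.9% of probes were detected on each of the 12 arrays, and 6 arrays per group limit the precision. One lmFit and eBayes fit gave each of 12 groups a mean, with two-sided tests adjusted over 10193 probes, 256 X- or Y-linked and 596 unnamed ones included. Of all probes 23978 had 1 symbol, 0 several and 1719 none, and 8 symbols were updated through RefSeq names. Of 1749 genes with several probes, 235 had a called probe, but only 23 had all their probes called. In 1 gene probes were called both ways. A probe detected on no array of a group gives a bound, taken against the lowest detected signal on each array.

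Named genes were the 12 largest differences each way that held without male array 106, the 3 strongest members of each list and the 4 largest changes each way of each difference of sex differences. Members and lists were chosen with earlier results of these data known. Alternatives covered normalization, background, filters, arrays fitted, array weights, each array left out and a replicate block.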

Additional observations from a re-analysis of the deposited data

Results flagged for a closer look

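In 154 groups of 6 values tested for a single far value, 13 were found, 7 of them on male array 106; chance gives about 1 in 20 groups. On male array 106 these were Cyp7b1 at 7.73 (others 8.78 to 9.32), Hal at 11.29 (9.65 to 10.17), Slc38a4 at 8.90 (8.38 to 8.55), a mean correlation of 0.945, 532 genes 2-fold from the other males, a mean gluconeogenesis level of 8.76 (7.96 to 8.23) and a mean adipocyte marker level of 4.79 (5.41 to 5.61). The adipocyte mean covered 7 genes, 2 of them past the detection filter and 4 detected on none of the 12 arrays. Car3 is among the 7 and differed by -5.01 on array 106 from the mean of the other males, so this flag is not separate from Car3. On male array 105 Acot2 was at 6.14 (4.79 to 5.24) and Mia3 at 5.74 (4.93 to 5.18). On female array 106 Ppara was at 6.07 (6.90 to 7.32), the female-biased P450 list at 6.40 (6.63 to 6.68), and 152 genes lay 2-fold from the other females. On female array 107 Uqcrb was at 10.40 (10.07 to 10.14).

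The sex difference at 40% CR differed from that at AL by 4.87 for A1bg, 2.90 for Cyp7a1, 2.45 for Upp2, 2.34 for Eci3, -2.61 for Clstn3, -2.85 for Cyp4a12a, -3.40 for Mup21 and -3.56 for Cyp2d9 (log2, interaction in limma). It differed from that at 20% CR by 4.63 for Cyp2b13 and -0.82 for Pa2g4. C57BL/6J differed from DBA2/J by 2.24 for Nat8, 1.88 for Slc25a30, 1.72 for Acot2, 1.36 for Klf6, -1.44 for Uqcrb, -1.45 for Wfdc21, -1.48 for Hal and -1.57 for Gstm4.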

How the results depend on the processing

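None of the 53 gene-level results changed sign under any alternative run. The balance of directions against AL did turn over on z-scores, as given below. The count of probes past the threshold, 572, became 306 with the 12 arrays normalized and fitted alone, 305 with the compared groups alone and 1286 with array quality weights, which gave male array 106 a weight of 0.229. With 1.5-fold added (143), quantile normalization without background correction gave 56 and array weights 236. The 277 probes changed against AL became 141 with the compared groups alone and 936 with weights. The 3 changed against 20% CR became 5 with quantile normalization, the authors' z-scores or weights. The 344 differing from DBA2/J became 948 with weights, and on z-scores 243, or 199 without the DBA2/J male of conflicting labels. Leaving out each array gave 354 (without male array 103) to 567, 116 to 171, 209 to 330, 2 to 4, and 219 (without male array 105) to 366. The 24 largest genes kept 20 to 24 calls. Of 53 gene-level calls, 13 no longer passed with no detection filter, 10 with the compared groups alone, 8 on z-scores and 0 with weights. The call of H2-D1 held in 7 of 21 settings, of Glul in 8 of 20, of Nr1h3 in 9 of 21, of C6 in 10 of 21, of Dbp in 12 of 21 and of Mt1 in 13 of 21. On z-scores the changes against AL were 147 more positive and 113 more negative, and 137 and 115 with the block. Replicate numbers did not pair the mice: same-numbered males and females correlated at -0.268 to 0.401, and a replicate block on z-scores gave 521 probes against 495 without it. The causes were not tested.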
